A study of Raphanus raphanistrum and Isatis lusitanica and Arabidopsis thaliana with 13 samples.

Results

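The study searched for *IBM1* in *I*. *lusitanica* by ortholog analysis, transcriptome assembly and PCR of genomic DNA. It could not identify the gene and proposes that it might be lost, with a better genome sequence needed to settle this. As a further line of evidence, it drew a stretch of synteny with *A*. *thaliana* that lacks *IBM1*. The drawn stretch lies on scaffold 2 of the *I*. *lusitanica* genome, the scaffold described here. Its members were chosen by name: every gene model of the *I*. *lusitanica* expression tables whose identifier begins with IsLuscaffold2_, ordered by g number. This gave 105 of 41829 models, from g11054 to g11160, with the numbers g11056 and g11107 not listed. The 12 models from g11138 to g11149 are those the study drew against *A*. *thaliana* chromosome 3, and they serve here as the reference point, so that most values below belong to the other 93. Expression came from 3 RNA-seq libraries of one group: leaves of *I*. *lusitanica*, a wild species of the Brassicaceae, from plants 8 weeks old grown at 23 °C under 15 hours of light, with no treatment. No genotype is given in the labels, and neither the labels nor the methods say whether the libraries came from separate plants, so the spread between replicates may be technical. The labelled tissue could not be checked against leaf markers, because no source names the identifiers of leaf marker genes.

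*IBM1* encodes a histone demethylase with a JmjC domain that removes dimethylation of histone H3 lysine 9 from transcribed genes in *A*. *thaliana*. This mark and CHG methylation of DNA reinforce each other through KYP, which writes the histone mark, and CMT3, which methylates the DNA, and IBM1 keeps that loop out of gene bodies. Genes next to a lost gene usually keep their order between related genomes, and for this reason the flanking models mark the place where *IBM1* would lie. In the drawing that place is between g11142 and g11143.

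The study, which looked for *IBM1* by PCR of genomic DNA among other means, lists a primer in each of these flanking models. They are shown because they are the only sequences of scaffold 2 models in the sources used here. Both are written 5′ to 3′ in lower case, with no base singled out by capitals, and the tables give no coordinates for them.
g11142, forward primer of 24 bases: atgtgtaccggttcttatctcgga
g11143, reverse primer of 23 bases: ggaagatggcacaccatatccat

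The libraries held 21993142, 22808396 and 5700441 estimated counts in replicates 1, 2 and 3, and 3 counts stood for 0.136, 0.132 and 0.526 CPM. Replicate 3 was the shallowest, by a factor of 4.00 against the deepest, and it stood apart in TPM as well. Over the 21993 models with a summed count of at least 30, its TPM was 1.49 times the mean of replicates 1 and 2 by the median. With edgeR's TMM factors, which are computed to bring libraries to a common level, this median ratio was 0.982. The size of the shift thus depends on the scaling chosen, and its cause was not tested. Levels are given as TPM, which divides counts by the effective length of a model and scales each library to the same total. In leaf tissue, fewer cells expressing a gene and less RNA per cell cannot be told apart.

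Most of scaffold 2 was transcribed in the leaf. A model was called detected at 1 TPM or more. Of the 105 models, 67 (63.8%) were detected in every library, against 62.0% of the 665 models on the 9 other scaffolds with at least 50 models and 40.0% of all models. Another 25 (23.8%) stayed under 1 TPM in every library, against 25.3% on the comparison scaffolds and 46.5% of all models. Of these, 15 had no count at all. The remaining 13 crossed the threshold between libraries. Replicate 3 reached 1 TPM for 11 of these 13, replicate 1 for 6 and replicate 2 for 3. Only in replicate 3 did g11063, g11071, g11106, g11139 and g11153 reach it, and g11097 and g11104 reached it in another library but not there. The shallowest library thus gave the most calls among these models. A mean of at least 10 TPM was found for 35 models, or 33.3%, against 27.5% on the comparison scaffolds and 19.3% of all models. The median of the 105 means was 4.94 TPM.

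**Figure D1:**
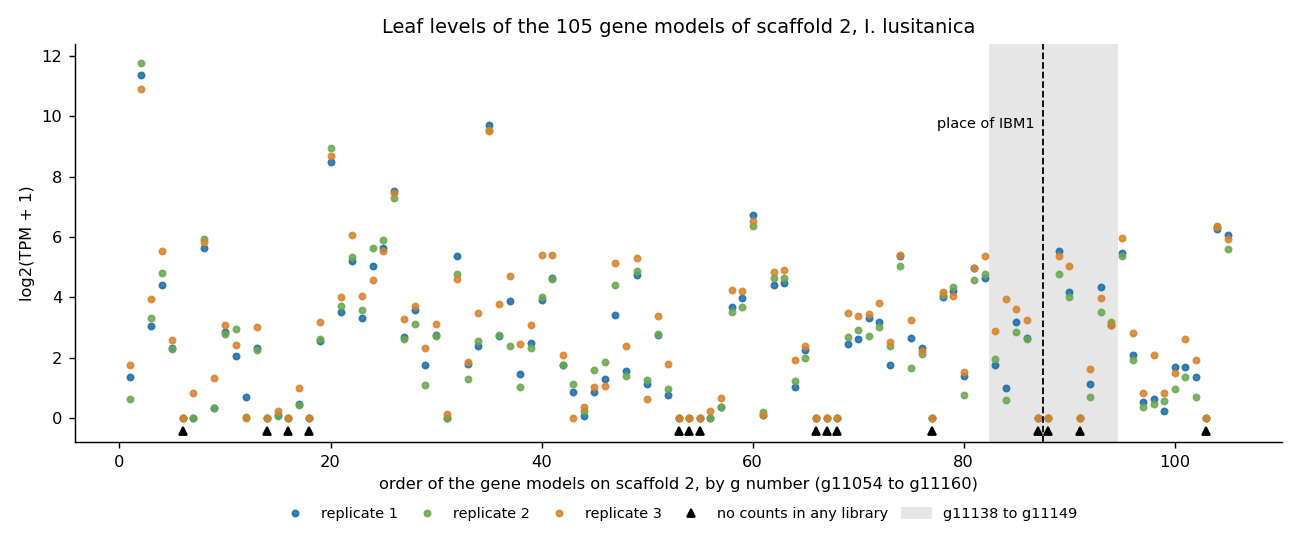
Level of each scaffold 2 model on the log2(TPM + 1) scale (vertical axis) against its order by g number (horizontal axis), with 1 point per library, triangles for the 15 models without counts, grey for g11138 to g11149 and a dashed line at the place of *IBM1*. Models without counts lie on both sides of the line, and the highest level, that of g11055, lies at the opposite end of the scaffold.

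The highest level belonged to g11055, the second model of the scaffold. It had 2661, 3518 and 1916 TPM in replicates 1, 2 and 3, a mean of 2699 ± 802 TPM (SD, n = 3), above 99.9% of all models. Replicate 2 was the highest and replicate 3 the lowest. Alone it took 67.9%, 73.2% and 50.5% of the counts on the scaffold. It therefore decided how much of each library the scaffold held. The 105 models took 0.864% ± 0.116 of the counts (SD, n = 3) and 0.304% ± 0.0583 without g11055, while they make up 0.251% of the models and 0.357% of the summed length. On the comparison scaffolds the mean share ranged from 0.0971% to 1.01%.

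After g11055 the levels fell in steps that held in every library and then lay close together. g11089, at 198 bases one of the shortest models, had 832, 755 and 733 TPM, a mean of 773 ± 51.9 TPM (SD, n = 3). g11074 followed with 354, 491 and 410 TPM and g11080 with 182, 156 and 175 TPM. Each of these 4 models was above the next in all 3 libraries, and g11080 was also above g11115 in all 3. Below them the order was not fixed. g11115 had 105, 81.2 and 90.4 TPM and g11159 had 75.6, 81.8 and 78.7 TPM, so that g11115 was the higher in 2 of 3 libraries. g11159 exceeded g11160 in every library, but g11160, g11062, g11079 and g11150, with means between 48.2 and 57.5 TPM, lay in this order with each above the next in 2 of 3 libraries only. Within this group of 10 the steadiest model was g11159, at 78.7 ± 3.14 TPM (SD, n = 3). Among the 10, g11079 lies directly beside g11080 and g11159 beside g11160. g11160, the last model of the scaffold, had 65.4, 47.4 and 59.6 TPM.

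**Figure D2:**
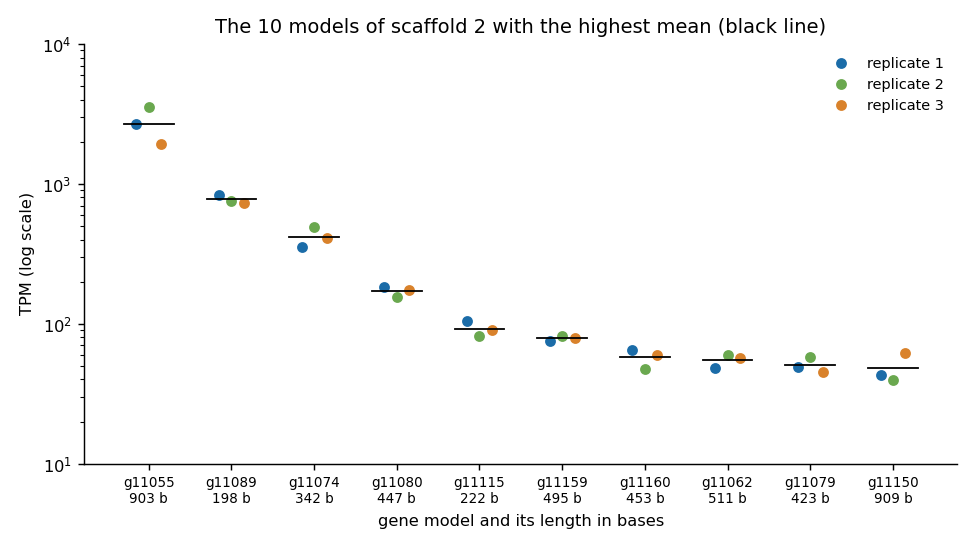
TPM on a log axis of the 10 scaffold 2 models with the highest means, with 1 point per library and a black line at the mean; the length of each model in bases stands under its name. The first 4 are separated from each other in all 3 libraries, and the points of the last 4 overlap.

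All 10 of these models were shorter than 1000 bases, with a median length of 450 bases, while the median on the scaffold was 1038 bases. Across the 90 models with counts, Spearman's correlation of length with mean TPM was -0.336, and with mean CPM, which is not divided by length, it was 0.0873. Both are descriptions across models of the same libraries, which are not independent replicates. By CPM only 5 of the 10 stayed among the 10 highest. The order of g11089, g11074 and g11080 also changed, with means of 94.0, 172 and 121 CPM. The longest model of the scaffold, g11094, at 5148 bases, was then second, with 341 CPM, and it is named here after its values were seen.

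Near the threshold the libraries decided the call. Just above a mean of 1 TPM lay g11104, with 1.20, 1.37 and 0.550 TPM, and g11099, with 0.828, 2.00 and 1.02 TPM. Just below lay g11063, with 0.269, 0.252 and 1.50 TPM, and g11097, with 0.817, 1.16 and 0 TPM. g11097 is the shortest model, at 189 bases, and these values rest on 2, 3 and 0 estimated counts. None of these 4 models was on the same side of 1 TPM in all libraries. The first model, g11054, behaved likewise at 1.55, 0.542 and 2.39 TPM.

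No count was found in any library for 15 models, or 14.3%, against 10.5% on the comparison scaffolds and 30.8% of all models. They are g11060, g11068, g11070, g11072, g11108 to g11110, g11121 to g11123, g11132, g11142, g11143, g11146 and g11158. Of these, 3 are among the 12 drawn models and 12 among the other 93, or 12.9%, so the share was larger in the drawn region. Their median length was 893 bases against 1079 bases for the 90 models with counts, and the longest were g11072 at 1843 bases, g11132 at 1719 bases and g11121 at 1560 bases. For g11072 a count of 0 allows up to 3 counts, which stood for 0.0260 TPM in replicate 1 and 0.114 TPM in replicate 3. For g11109, at 201 bases, the same limit was 1.08 and 4.30 TPM, so that a level above the threshold was not excluded by depth there. In replicate 3 the limit was under 1 TPM for 13 of the 15. These limits cover counting error only.

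Some of the models without counts stood next to each other. Of the 104 pairs of neighbours, 5 (4.81%) had no count in both models, and they formed 3 runs: g11108 to g11110, g11121 to g11123, and g11142 with g11143 at the place of *IBM1*. On the 9 comparison scaffolds 7 of 656 pairs were of this kind, or 1.07%, with between 0 and 2.00% on a single scaffold and no run longer than 2 models. The number of such pairs also depends on the share of models without counts, 14.3% on scaffold 2 and 10.5% on the comparison scaffolds. No allowance was made for this. Without the pair at the *IBM1* site the count on scaffold 2 was 4 of 103, or 3.88%. This count was chosen after the values had been seen, and it was not tested, since neighbouring models of 1 scaffold are not replicates. Around the first run the low stretch was longer, since g11111 and g11112 also stayed under 1 TPM in every library. g11111 had 0, 0 and 3 counts.

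Detected models formed runs as well. The longest was g11073 to g11084, 12 models at 1 TPM or more in every library, and the next was g11086 to g11096, 11 models. Between them lies g11085 alone, with 0, 0 and 1 counts. On the comparison scaffolds the longest such run ranged from 5 to 14 models. Spearman's correlation between the mean log2(TPM + 1) of each model and that of the next was 0.273 over the 104 pairs of scaffold 2. On the 9 comparison scaffolds it ranged from -0.0707 to 0.191. The pairs share libraries and overlap, so these are descriptions without a test.

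In blocks of 15 consecutive models the number detected in every library was 8, 12, 11, 8, 11, 10 and 7 from g11054 onward. The medians of the mean levels were 4.27, 10.2, 5.31, 1.70, 5.29, 6.30 and 1.66 TPM. The second block, g11070 to g11084, was the highest, and the fourth, g11100 to g11115, and the last, g11146 to g11160, were the lowest. The place of *IBM1* falls inside the sixth block.

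The drawn region served as the reference point. Of its 12 models, 7 were detected in every library, as were 60 of the other 93, or 64.5%. The medians of the mean levels were 5.78 and 4.75 TPM. The highest model of the region was g11144, with 45.1, 26.6 and 40.3 TPM, which the drawing links to the *A*. *thaliana* gene of the spliceosomal protein SmD1a. No count was found for g11142, g11143 and g11146, 3 of the 12, against 12.9% of the other 93. g11149 was the steadiest model detected on the scaffold, with 7.54, 7.98 and 7.51 TPM.

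Beyond the place of *IBM1* the scaffold held fewer models, with 18 from g11143 on and 87 up to g11142. Up to g11142, 70.1%, 70.1% and 74.7% of the models were detected in replicates 1, 2 and 3. From g11143 on, 12, 9 and 13 of the 18 models were detected, lowest in replicate 2. The difference of 8.69 ± 9.91 percentage points (SD, n = 3) was no larger than the spread between libraries and came mostly from replicate 2, without which it was 2.97. It pointed the same way in 3 of 3 libraries (exact two-sided sign-flip permutation test, p = 0.25, the smallest that 3 libraries allow), and it turned with other detection rules, to -2.49 points at 0.1 TPM. On 18 models each side of the place, 14 and 9 were detected in every library and 2 and 3 had no counts, with median levels of 6.66 and 2.32 TPM.

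Against the 9 other scaffolds with at least 50 models, scaffold 2 lay within the range in most measures. The percentage of its models detected was 69.5%, 66.7% and 74.3% in replicates 1, 2 and 3, and 66.3%, 64.4% and 72.8% over the comparison scaffolds. The difference was 2.34 ± 0.853 percentage points (SD, n = 3), higher in 3 of 3 libraries, with p = 0.25 in the exact two-sided sign-flip permutation test, the smallest possible here. It was -0.936 points at a threshold of 0.1 TPM, and 6.88 points at 5 TPM, so that size and direction depended on the threshold. With at least 10 estimated counts it was 0.886 points, and with counts thinned to the shallowest library 1.05 points. By the share detected in every library scaffold 2 ranked 5 of 10, and the others ranged from 53.8% on scaffold 3 to 76.2% on scaffold 7. By the share without counts it ranked 3 of 10, after scaffolds 1 and 6.

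The median level of scaffold 2 lay above that of the comparison scaffolds in each library. The median of log2(TPM + 1) was 2.32, 2.28 and 3.01 in the 3 libraries, against 1.93, 1.76 and 2.43 over the comparison scaffolds. The difference was 0.50 ± 0.10 on the log2 scale (SD, n = 3) and positive in 3 of 3 libraries (exact two-sided sign-flip permutation test, p = 0.25, the smallest possible). It kept this sign under every alternative tried for it, but fell to 0.31 when only models with a mean estimated count of at least 10 were used, and it was 1.80 against all models of other scaffolds. Scaffolds 5 and 8 had higher medians still, so scaffold 2 ranked 3 of 10. Models of scaffold 2 were not longer, with a median of 1038 bases, rank 8 of 10, against 1146 bases over the comparison scaffolds and 645 bases over all models.

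**Figure D3:**
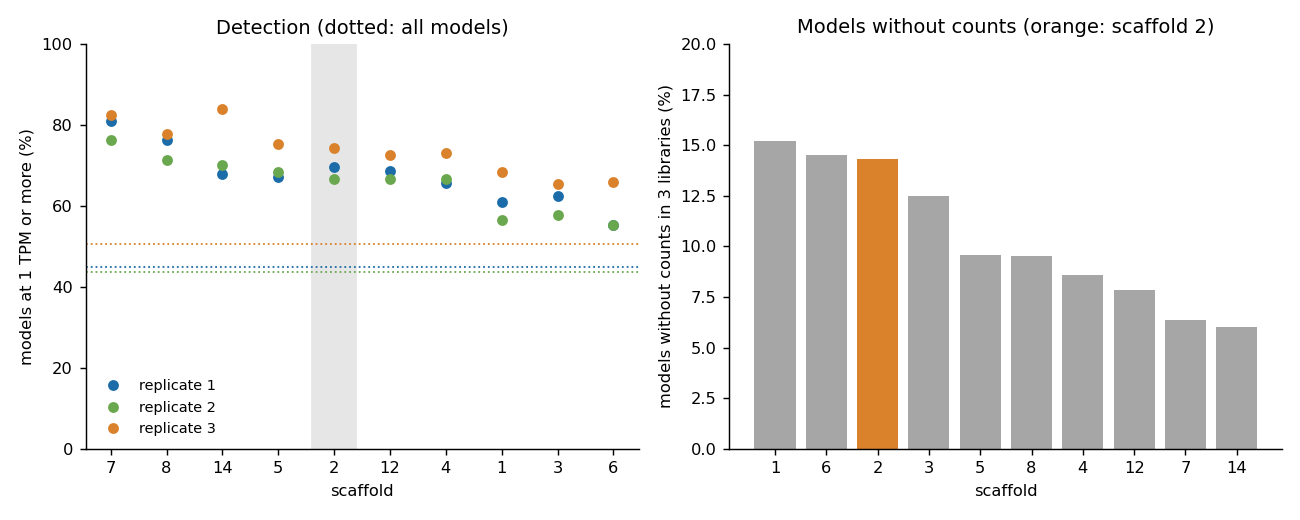
Left, percentage of the models of a scaffold at 1 TPM or more in each library (1 point per library, scaffold 2 in grey, dotted lines for all models); right, percentage of models without counts in the 3 libraries. In every library, scaffold 2 lies in the range of the other 9 scaffolds with at least 50 models and above the line for all models, and scaffolds 1 and 6 have a larger share without counts.

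Few members had estimated counts that were not whole. Where kallisto divides reads between models, the estimated counts need not be whole, but a whole count does not exclude shared reads. A count that missed a whole number by over 0.001 occurred in at least 1 library for 6 of the 90 models with counts, or 6.67%. The share was 3.36% on the comparison scaffolds and 25.5% over all models. Of these 6, 4 formed pairs of neighbours of nearly the same length. g11077 and g11078, 1398 and 1410 bases long, had 755.662 and 2698.34 counts in replicate 1, which add up to a whole number within 0.01. The same held for g11086 and g11087, 1026 and 1011 bases long, with 2292.88 and 138.116 counts. Summed over each pair, the levels were 46.1 ± 11.6 TPM and 32.0 ± 9.21 TPM (SD, n = 3). How the reads of a pair divide between its members is uncertain. These pairs are named after their values were seen. The sequences of these models were not used here, so their likeness was not measured. g11054 and g11092 were not whole in 1 library each.

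Replicates agreed closely over the scaffold. Pearson's correlation of log2(TPM + 1) over the 90 models with counts was 0.984, 0.966 and 0.957 for replicates 1 and 2, 1 and 3, and 2 and 3, and over the 595 such models of the comparison scaffolds 0.959, 0.924 and 0.924. These are across models, which are not independent replicates. Among the 67 models detected in every library the coefficient of variation had a median of 29.6%, against 33.3% over the 412 of the comparison scaffolds. It ranged from 3.43% for g11149 to 75.7% for g11092.

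Replicate 3 was the highest library for most members in TPM, a pattern shared with the whole transcriptome. Of the 83 models with a summed count of at least 30, 61 (73.5%) were higher in replicate 3 than in both other libraries, against 69.8% on the comparison scaffolds and 65.7% of all models. With edgeR's TMM factors, which level the libraries by design, the count fell to 34 of 83, or 41.0%, against 37.5% of all models. That majority thus depends on the scaling chosen, and its cause was not tested. The median ratio of replicate 3 to the mean of the others was 1.56-fold on scaffold 2 and 1.57-fold on the comparison scaffolds. A ratio above 2-fold was found for 24 models, or 28.9%, against 28.6% on the comparison scaffolds and 30.2% of all models. Replicate 3 was more than 2-fold below the others for 2 models, g11066 and g11104, or 2.41%, against 6.49% and 7.58%. With TMM factors 4 models (4.82%) were more than 2-fold above and 7 (8.43%) more than 2-fold below, against 9.16% and 12.2% on the comparison scaffolds and 12.3% and 14.6% of all models. Both shares on scaffold 2 were then under the background, as a description without a test.

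The members with the highest and lowest ratios were described by their values. Outside the drawn region the highest ratio among models of at least 1 TPM was that of g11153, 3108 bases long, with 0.550, 0.384 and 3.25 TPM. Replicate 3 was 6.97-fold above the mean of the others and 4.67-fold beyond the median shift of all models, above 97.9% of the models. Its 152 counts in replicate 3 stood for 26.7 CPM with an exact Poisson 95% interval of 22.6 to 31.3 CPM, and in replicate 1 the interval was 4.23 to 6.18 CPM. The model was chosen for its ratio, so these intervals are a description and cover counting error only. Without replicate 3 the mean of g11153 fell from 1.40 to 0.467 TPM. g11092 followed with 3.26-fold, at 1.72, 1.06 and 4.52 TPM, and g11106 with 3.01-fold, at 0.690, 0.948 and 2.46 TPM. Their ratios lay above those of 89.5% and 87.4% of all models, so that many models elsewhere went further. In the drawn region g11139, which the drawing links to the *A*. *thaliana* gene of the zinc finger protein COL9, had 0.995, 0.495 and 14.3 TPM, a 19.1-fold ratio.

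Among models with a mean of at least 1 TPM outside the drawn region, the lowest ratios were those of g11104, g11100 and g11078, at 0.429, 0.534 and 0.562. Relative to the median shift of all models they were 0.287, 0.358 and 0.377, above the ratios of 6.2%, 8.3% and 8.9% of all models. g11104 rested on 2 counts in replicate 3, and its Poisson interval there, 0.0425 to 1.27 CPM, overlapped that of replicate 1, 0.485 to 1.29 CPM. g11100 had 1.43, 2.61 and 1.08 TPM. g11078, one of the models that share reads, had 31.9, 48.5 and 22.6 TPM, and these values depend on the uncertain split with g11077. One model of lower level, g11066, was singled out after its values were seen: it had 53, 2 and 0 counts in replicates 1, 2 and 3. Each library has no replicate of its own, so none of these ratios was tested.

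**Figure D4:**
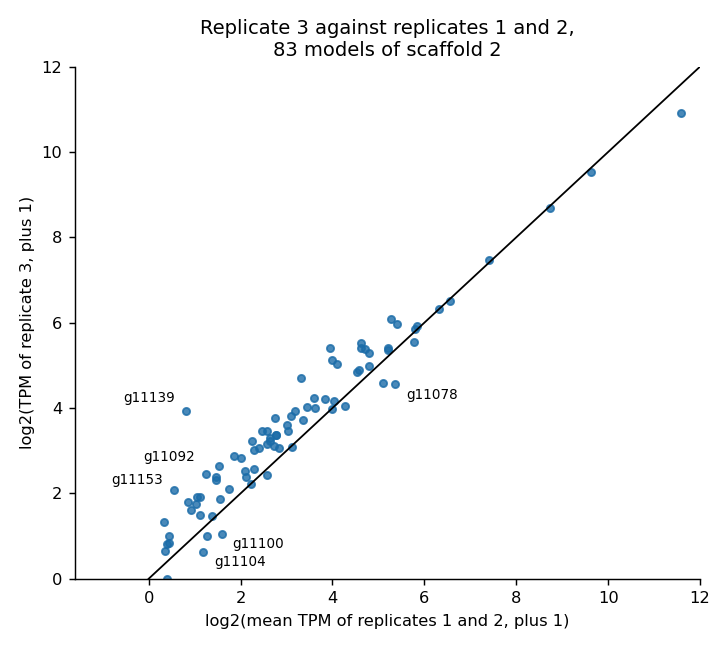
Level in replicate 3 against the mean of replicates 1 and 2, both as log2(TPM + 1), for the 83 scaffold 2 models with a summed count of at least 30; the line marks equal levels. Most points lie above the line, with g11139 the farthest, and the labelled models below it are g11078, g11100 and g11104.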

How the data were processed

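Per the authors' methods and processing notes, reads were trimmed (Trimmomatic 0.33) and quantified library by library against the species' transcriptome (kallisto 0.50.0). The deposited estimated counts are not normalized, and the deposited TPM is scaled by effective length within a library. No source states the transcriptome version. Coordinates and sequences of the models were not used, apart from 2 primers of the study, and gene names only where its synteny drawing links a model to an *A*. *thaliana* gene. The 7 MethylC-seq samples and the *R*. *raphanistrum* libraries were not used.

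The members and lists were chosen with earlier results of these data known. Named were the 12 drawn models, the 10 highest by mean TPM, the 3 longest without counts, the first and last, the 3 highest and 3 lowest ratios of replicate 3, and 2 models on each side of 1 TPM, with runs of models. Members were compared with the 9 other scaffolds of at least 50 models. Differences were taken within a library and tested over the 3 libraries by exact sign-flip permutation. Log values are log2(TPM + 1). The 3-count limits and Poisson intervals (95%) cover counting error only. Scripts were tested on simulated data. Python 3.11.15, numpy 2.4.6, pandas 2.3.3, scipy 1.17.1, matplotlib 3.10.9, R 4.3.3, edgeR 4.0.16 and DESeq2 1.42.0 were used, edgeR and DESeq2 only for scaling factors, computed on rounded estimated counts.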

Additional observations from a re-analysis of the deposited data

How the results depend on the processing

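Of 59 alternative values for the 8 main results, 4 differences in share detected turned. The correlation of neighbours moved by more than the spread between libraries in 3 values. Differences that kept their sign were not counted as moved, though some changed by more than that spread. The difference in share detected was 6.88 points at 5 TPM and 23.8 points against all models of other scaffolds. The difference in median level was 0.312 with a mean estimated count of at least 10 and 1.80 against all models of other scaffolds. The difference in the share detected between scaffold 2 and the comparison scaffolds turned to -0.936 percentage points at a threshold of 0.1 TPM. The difference between the sides of the *IBM1* site, 8.69 points, turned to -2.49 at 0.1 TPM, to -4.47 when at least 10 estimated counts were asked for, and to -4.23 without the 1% most abundant models. The cause was not tested. The correlation of neighbours was 0.317 without g11138 to g11149 and ranged from 0.260 to 0.284 with a replicate left out. With a replicate left out, the number of detected models ranged from 68 to 72, the models without counts from 15 to 18, the difference in median level from 0.458 to 0.553 on the log2 scale, the difference in share detected from 1.91 to 2.76 points, that between the sides from 2.97 to 11.8 points, and the share of counts from 0.806% to 0.922%. Detected models numbered 45 at 5 TPM and 82 at 0.1 TPM. The means of named models were also taken as CPM and without the 1% most abundant models; both change the scale of all models and say nothing of the stability of one. A sign-flip test over 3 libraries cannot give p below 0.25, so it bears on no threshold. The counts by TMM factors and of silent pairs were added after the data had been seen. No paired analysis was possible because replicate numbers are shared only between 2 species with different models. Depth limited replicate 3 most.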
